A study of Mus musculus with 6 samples.

Results

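Transcripts of 37 lysosomal genes were examined in whole mouse retina: 25 genes of lysosomal enzymes, membrane proteins and their regulator Tfeb, and 12 subunits of the vacuolar proton pump (V-ATPase). The genes were taken by symbol from a table of 25124 gene models, all 37 were present with 1 model each, and all 37 passed the filter on low counts that kept 14685 genes. Poly-A RNA came from 4-month-old C57BL/6J mice of 2 genotypes, with 3 Elovl2C234W and 3 wild-type (WT) libraries. Elovl2C234W animals carry a cysteine-to-tryptophan substitution in Elovl2, an elongase of very long polyunsaturated fatty acids, among them precursors of docosahexaenoic acid, which is abundant in photoreceptor membranes. No other allele or treatment is named in the labels for either genotype. The comparison asks how transcripts of the degradative compartment stand in C234W against wild-type retina.

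Lysosomes break down proteins, glycans and lipids with hydrolases that work at acidic pH, and the V-ATPase supplies the protons. In this pump a membrane-embedded sector, V0, carries protons and a cytosolic sector, V1, splits ATP to turn it. The transcription factor TFEB and its relatives bind a palindromic element near the start sites of many lysosomal genes. In the eye, lysosomes of the pigment epithelium digest shed photoreceptor outer segments, while retinal neurons use the same pump to acidify synaptic vesicles.

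The C234W libraries FS3A, FS3B and FS5A held between 15804645.5 and 19298613 counts in genes, and the wild-type libraries WT1A, WT2A and WT2B between 14184093 and 18710329. Whether any 2 libraries come from 1 animal is not stated, and the names FS3A and FS3B, like WT2A and WT2B, have a number in common. The p-values therefore cover only the spread between these samples, which may be technical. The 3 FS libraries were assigned to C234W by elimination, and every direction below rests on that. Levels are given as CPM, counts scaled to library size with TMM factors between libraries. Elovl2 averaged 96.1 ± 17.9 CPM in C234W and 138.7 ± 3.01 CPM in wild type (SD, n = 3 each); the C234W allele changes the protein, so its RNA level is no check of the labels. Retinal identity was clear from 8 rod markers, whose summed level ran from 62430 to 83170 CPM in C234W and from 92450 to 145900 CPM in wild type, without overlap. The summed level of 6 bipolar cell markers ran from 879 to 981 CPM in C234W and from 566 to 709 CPM in wild type. The 6 Mueller glia markers summed to 3671, 4446 and 3353 CPM in FS3A, FS3B and FS5A. In WT1A, WT2A and WT2B they summed to 4103, 4883 and 5839 CPM, so the genotypes overlapped. The 6 cone markers overlapped too, at 811 to 1230 CPM in C234W and 942 to 1090 CPM in wild type. The 10 pigment epithelium markers, all measured and none at 0, summed to 111 to 178 CPM in C234W and to 78.3 to 768 CPM in wild type, the highest value being that of WT1A. The 6 endothelium markers summed to 134 to 171 CPM in C234W and to 71.1 to 119 CPM in wild type, and the 5 erythrocyte markers to 37.0 to 49.6 CPM in C234W and to 71.1 to 141 CPM in wild type, both without overlap. In bulk tissue, fewer cells of a type and less RNA per cell cannot be told apart.

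In C234W retinas the measured levels of all 12 proton pump subunits were below those of wild type on average, and 1 subunit passed the test. The levels of 7 of 8 peptidases were also lower on average, while glycan hydrolases lay on both sides. With a trend on transcript length removed, 4 of 8 peptidases and 5 of 9 glycan hydrolases were lower, as were 54.5% of all genes. In the edgeR quasi-likelihood test, with adjusted p under 0.05 over all genes, 1 of the 37 fell and 0 rose, leaving 36 that did not pass. Over all genes tested, 1.46% passed, 1.28% lower and 0.184% higher, so a single call among 37 is near that background. DESeq2 called 5 of the 37, all lower, where it called 12.7% of all genes and 7.69% as lower. In edgeR without WT1A the same 5 passed, where 18.5% of all genes passed and 9.39% as lower. The library names end in A or B, letters the labels do not explain; with the letter as a term beside genotype, a fit added after the data were seen, edgeR called 4 of the 37 (Lamp1, Atp6v0b, Atp6v1f and Atp6v1g1), where it called 4.77% of all genes. The gene that fell was Atp6v1g1, a stalk subunit of the pump. At an unadjusted p under 0.05, 7 of the 37 were lower and 0 higher, against 13.5% and 11.9% of all genes. The groups did not overlap for 7 genes, all lower in C234W, against 16.4% of all genes lower and 12.6% higher without overlap. The median log2 fold change, C234W over wild type, was -0.12 over the 37 genes, -0.36 over the 12 pump subunits and -0.06 over the other 25, against 0.023 over all genes tested. All 12 pump subunits had a log2 fold change below 0, or 11 of 12 under total count scaling, without FS3A or without WT2B; 48.0% of all genes and 14 of the 25 other members were below 0. Total count scaling moved the median of all genes to 0.20 and that of the 37 members to 0.064. The rod, bipolar cell, endothelium and erythrocyte marker sums given above also differed between the genotypes without overlap, while the Mueller glia and cone sums overlapped. The part of these cell types in the values was not tested.

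**Figure D1:**
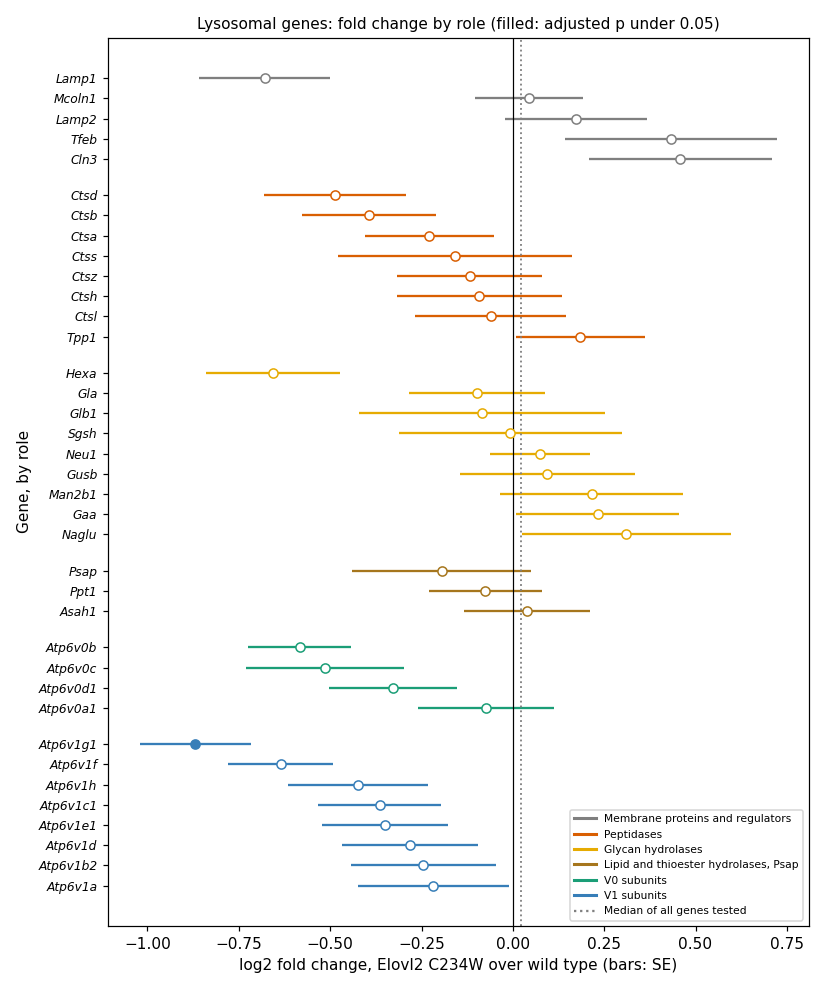
Log2 fold change (x axis, C234W over wild type, bars are SE) of each of the 37 genes, grouped by role down the page; the filled point passed the test and the dotted line is the median of all genes tested. All 12 V0 and V1 subunits lie left of 0, from -0.87 for Atp6v1g1 to -0.07 for Atp6v0a1. So do 7 of 8 peptidases (4 of 8 with the trend on transcript length removed, not drawn), and glycan hydrolases lie on both sides.

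The V1 sector held the single call. Atp6v1g1 (NM_024173, protein-coding, chr4:63544765-63550701 on the plus strand of mm10) encodes the G subunit of the peripheral stalks that keep the catalytic head from turning. Its level was 94.1, 99.5 and 88.0 CPM in C234W libraries FS3A, FS3B and FS5A, against 147, 181 and 186 CPM in wild-type libraries WT1A, WT2A and WT2B. The 3 C234W libraries lay close together, and all were below the lowest wild-type library. The log2 fold change was -0.87 (SE 0.152, edgeR quasi-likelihood adjusted p = 0.0484, unadjusted p = 0.000299), an adjusted p tied with that of many other genes. Its adjusted p ran from 0.000167 to 0.379 over 15 alternative settings, and the call ended in 9 of them, among them the removal of FS3A, FS3B, FS5A, WT2A or WT2B. In each of the 15 the gene stayed lower in C234W, with log2 fold changes from -0.96 to -0.59.

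Atp6v1f (NM_025381, protein-coding, chr6:29467783-29470509, plus strand) encodes a subunit of the rotating central stalk. It had 57.5, 47.5 and 52.3 CPM in FS3A, FS3B and FS5A, against 79.9, 82.5 and 81.9 CPM in WT1A, WT2A and WT2B. The groups were clearly apart, and the wild-type libraries had an SD of 1.34 CPM (n = 3). Its log2 fold change of -0.64 (SE 0.143) did not pass in edgeR (quasi-likelihood adjusted p = 0.0571), and passed in DESeq2 (adjusted p = 0.00447).

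The H subunit, Atp6v1h, holds ATP splitting in check when V1 is detached from the membrane. It had 79.1, 118 and 88.2 CPM in FS3A, FS3B and FS5A, against 109, 128 and 145 CPM in WT1A, WT2A and WT2B. FS3B lay within the wild-type range while the other 2 C234W libraries lay below it. The log2 fold change was -0.42 (SE 0.191, edgeR quasi-likelihood adjusted p = 0.202).

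Atp6v1b2, the nucleotide-binding B subunit of the head, was the most abundant V1 transcript per kilobase. It had 384, 548 and 350 CPM in FS3A, FS3B and FS5A, against 470 (470.4), 507 and 542 CPM in WT1A, WT2A and WT2B. Here FS3B was the highest of all 6 libraries, and the fold change of -0.25 on the log2 scale was within 2 SE (SE 0.198). Atp6v1a, the catalytic A subunit, behaved alike, with 217, 337 and 216 CPM in FS3A, FS3B and FS5A against 286, 273 and 337 CPM in WT1A, WT2A and WT2B. Its log2 fold change was -0.22 (SE 0.207). The remaining V1 members were Atp6v1c1, which takes part in regulated assembly of the pump (-0.36, SE 0.168), Atp6v1d of the central rotor (-0.28, SE 0.186) and Atp6v1e1 of the peripheral stalks (-0.35, SE 0.173), all values being log2 fold changes. None of these 5 passed the test, with edgeR adjusted p between 0.21 and 0.54.

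In the V0 sector, 0 of 4 subunits passed in edgeR. An unadjusted edgeR p under 0.05 was reached by 2 of the 4, both lower, against 13.5% of all genes lower. DESeq2 called Atp6v0b alone, where it called 12.7% of all genes and 7.69% as lower. Atp6v0b (NM_033617, protein-coding, chr4:117884330-117887329, minus strand), a proteolipid of the rotating ring, had 207, 177 and 198 CPM in FS3A, FS3B and FS5A, against 294, 290.4 and 289 CPM in WT1A, WT2A and WT2B. The wild-type libraries were nearly equal and all C234W libraries were well below them. The log2 fold change was -0.58 (SE 0.141, edgeR quasi-likelihood adjusted p = 0.0631, DESeq2 adjusted p = 0.00469).

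Atp6v0c, the main proteolipid of the ring, had 74.0, 121 and 80.4 CPM in FS3A, FS3B and FS5A, against 123, 115 and 155 CPM in WT1A, WT2A and WT2B. FS3B overlapped the wild-type range, and the log2 fold change of -0.51 (SE 0.216) did not pass (edgeR quasi-likelihood adjusted p = 0.182). A model named Atp6v0c-ps2 covers nearly the same locus on the same strand, chr17:24163865-24169395, and averaged 91.2 ± 25.5 CPM in C234W and 130.5 ± 21 CPM in wild type (SD, n = 3 each), nearly the level of Atp6v0c, so the 2 models were taken as 1 signal whose level is uncertain. Atp6v0d1, which couples the ring to the rotor, had 126, 177 and 127 CPM in FS3A, FS3B and FS5A, against 168, 177 and 195 CPM in WT1A, WT2A and WT2B, a log2 fold change of -0.33 (SE 0.175). FS3B again lay within the wild-type range. Atp6v0a1, the large subunit of the proton path, found on synaptic vesicles, had 279, 401 and 296 CPM in FS3A, FS3B and FS5A, against 305, 339.9 and 381 CPM in WT1A, WT2A and WT2B. Its groups overlapped, and its log2 fold change of -0.07 (SE 0.186) was the smallest in size among the pump subunits and turned to 0.106 with total count scaling.

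**Figure D2:**
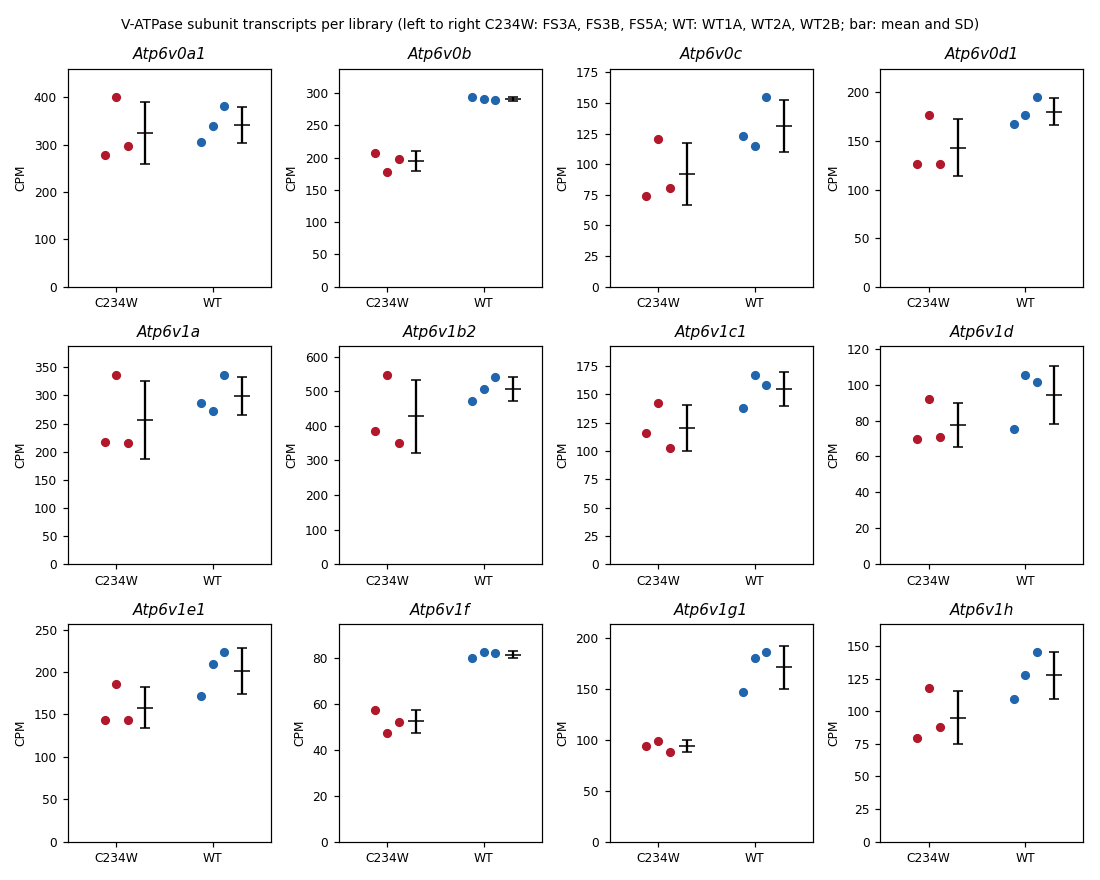
CPM (y axis, from 0) of the 12 V-ATPase subunits in each library, C234W on the left (FS3A, FS3B, FS5A) and wild type on the right (WT1A, WT2A, WT2B), with mean and SD beside the points. In 3 panels, Atp6v0b, Atp6v1f and Atp6v1g1, the groups do not overlap; in 10 of the 12 the highest C234W point is FS3B.

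The C234W libraries did not move alike. For all 12 pump subunits FS3A and FS5A were below every wild-type library, as they were for 22 of all 37 genes and for 21.6% of all genes tested. FS3B was the highest C234W library for 10 of the 12, for 28 of the 37 and for 34.5% of all genes tested. Summed over the 12 subunits, the level was 1848, 2445 and 1813 CPM in FS3A, FS3B and FS5A, against 2368, 2576 and 2795 CPM in WT1A, WT2A and WT2B, so FS3B fell within the wild-type range. The Mueller glia marker sums given above ranked the libraries in the same order, and the part of these cells was not tested. Averaged over the subunits, the deviation from each gene's mean log2 CPM was -0.315, 0.0242 and -0.334 in FS3A, FS3B and FS5A, against 0.0741, 0.222 and 0.33 in WT1A, WT2A and WT2B. Atp6v0b and Atp6v1f departed from this pattern, with FS3B as the lowest C234W library, and in Atp6v1g1 FS3B was below every wild-type library as well. Over all 37 genes the mean deviations of FS3A, FS3B and FS5A were -0.232, 0.146 and -0.173, against 0.0902, 0.0176 and 0.151 for WT1A, WT2A and WT2B. Of all sequenced tags, 65.8%, 74.2% and 66.6% fell in genes in FS3A, FS3B and FS5A. In WT1A, WT2A and WT2B the share was 74.4%, 70.1% and 73%, so FS3A and FS5A had the smallest shares. The part of this share in the values was not tested.

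**Figure D3:**
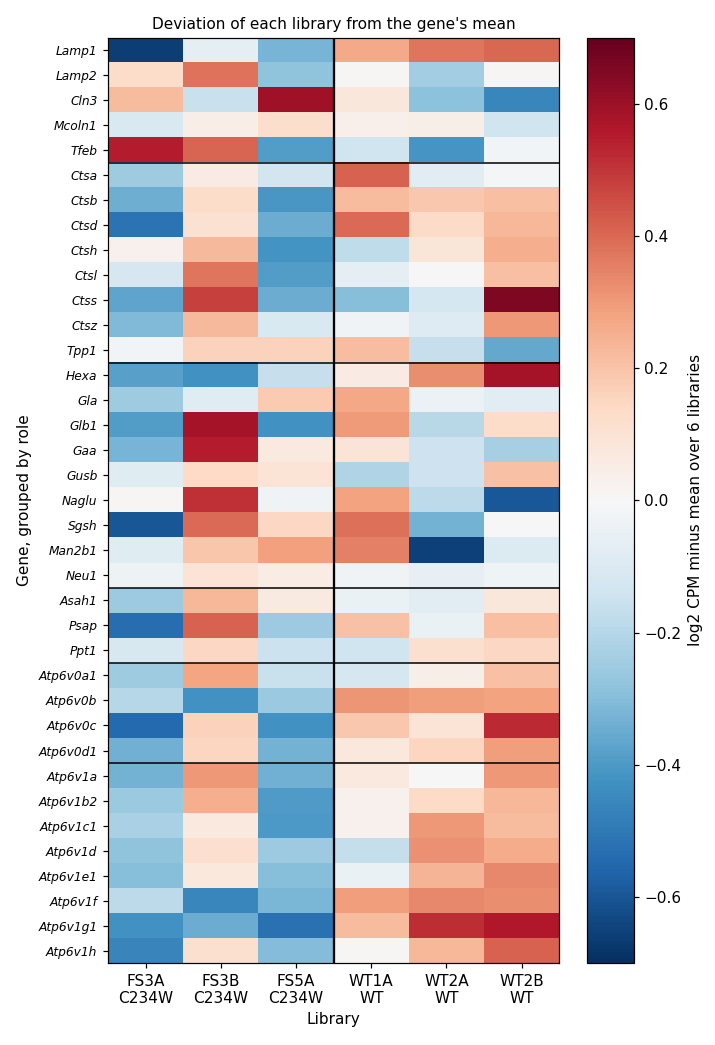
Log2 CPM of each gene in each library minus the gene's mean over the 6 libraries (colour scale), with C234W libraries left of the vertical line and roles separated by horizontal lines. The pump subunits at the bottom are blue in FS3A and FS5A and mostly pale red in FS3B, with Atp6v0b, Atp6v1f and Atp6v1g1 blue there, and most wild-type squares are red or pale.

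The fold change between genotypes varied with transcript length, and many of the pump subunits are short. When all genes were split into quintiles of the counted model, the shortest, up to 1671 bases, stood at a median of -0.34 (log2 fold change) and the next to longest, from 3529 to 4983 bases, at 0.13. Of the 12 subunits, 7 were in the shortest quintile, with log2 fold changes from -0.87 to -0.28, and 10 of the 12 lay below the median of their own quintile. Atp6v1f, with 631 bases, and Atp6v0b, with 986 bases, were the shortest of all 37 genes, followed by Atp6v1g1 with 1088 bases. With a trend on length removed from each library, the log2 fold change of Atp6v1f was -0.19 (SE 0.132), that of Atp6v0b -0.29 (SE 0.136) and that of Atp6v1g1 -0.59 (SE 0.149, edgeR adjusted p = 0.108). The median over the 12 subunits was then -0.28, against -0.051 over all genes, and all 12 remained below 0, as did 54.5% of all genes. Atp6v1a and Atp6v0a1, the longest subunits with 4183 and 4067 bases, had lower values after removal, -0.41 and -0.26. What sets the length trend was not tested.

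**Figure D4:**
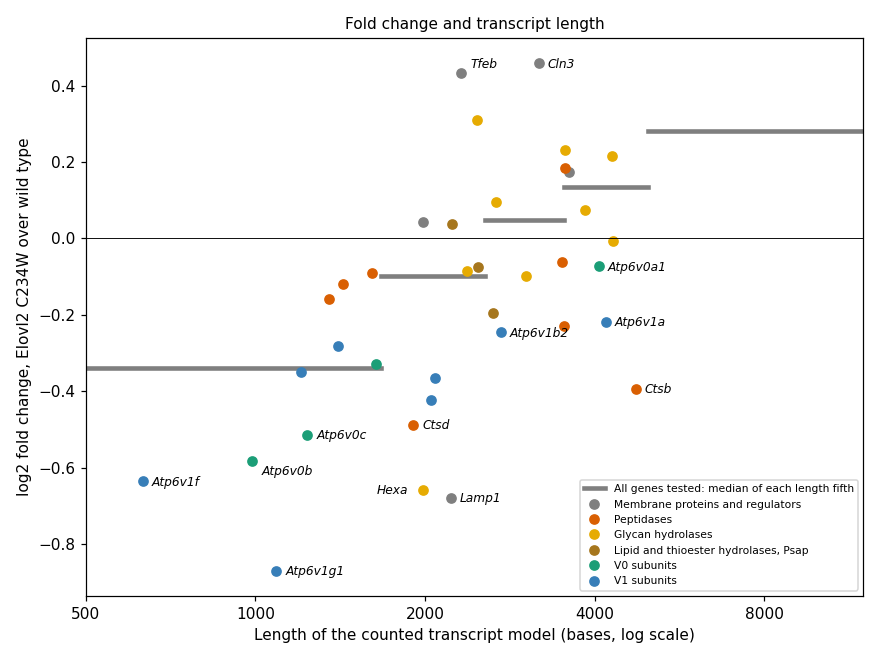
Log2 fold change (y axis, C234W over wild type) against the length of the counted transcript model (x axis, bases, log scale) for the 37 genes, with bars at the median of all tested genes in each quintile of length. The bars stand at -0.34 in the shortest quintile and 0.28 in the longest, and the long subunits Atp6v1a and Atp6v0a1 lie below the bar of their quintile.

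Pump genes outside the 12 came from a list of 16. Of the 11 that passed the filter on low counts, 0 passed the test. A log2 fold change below 0 was found for 8, against 48.0% of all genes. The median was -0.28, against 0.023 over all genes. With the length trend removed, 7 were below 0, as were 54.5% of all genes. The median was then -0.13, against -0.051 over all genes. An unadjusted p under 0.05 was reached by 2 of the 11 (18.2%), against 25.4% of all genes. Both were lower and were named after their values were seen. Vma21, an assembly chaperone of V0, had 76.6 ± 5.53 CPM in C234W and 119 ± 35.8 CPM in wild type, with overlapping groups. Atp6v0e2, a small membrane subunit, had 495 ± 43.8 and 673 ± 80 CPM, without overlap (SD, n = 3 each). Their edgeR quasi-likelihood adjusted p was 0.13 for Vma21 and 0.146 for Atp6v0e2. Groups without overlap were found for 2 of the 11 that were lower and for 1 that was higher, against 16.4% and 12.6% of all genes. The higher one was Atp6v0a2, at 55.9 ± 0.823 CPM in C234W and 47.0 ± 2.75 CPM in wild type (SD, n = 3 each). The other 5 of the 16 did not pass the filter.

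Among the 5 membrane proteins and regulators, Lamp1 had the lowest log2 fold change and the other 4 were above 0. Lamp1 (NM_001317353, protein-coding, chr8:13159161-13175338, plus strand), an abundant glycoprotein of the lysosomal membrane, had 155, 233.7 and 195 CPM in FS3A, FS3B and FS5A, against 294, 317 and 323 CPM in WT1A, WT2A and WT2B. Every C234W library was below every wild-type library. It gave a log2 fold change of -0.68 (SE 0.179), short of the threshold in edgeR (quasi-likelihood adjusted p = 0.0724), but passed in DESeq2 (adjusted p = 0.0141) and in edgeR without WT1A (adjusted p = 0.039). With the length trend removed it was -0.66 (SE 0.18). Its relative Lamp2, which also serves chaperone-mediated autophagy, had 60.2, 71.8 and 45.4 CPM in FS3A, FS3B and FS5A, against 55.4, 46.6 and 55.4 CPM in WT1A, WT2A and WT2B, with overlapping groups and a log2 fold change of 0.17 (SE 0.194).

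Cln3, a lysosomal membrane protein lost in juvenile Batten disease, had 17.3, 13.3 and 22.4 CPM in FS3A, FS3B and FS5A, against 15.7, 12.1 and 10.7 CPM in WT1A, WT2A and WT2B. The groups overlapped through FS3B, and the log2 fold change was 0.46 (SE 0.251, edgeR quasi-likelihood adjusted p = 0.28). Tfeb was at 12.3, 11.1 and 6.34 CPM in FS3A, FS3B and FS5A, against 7.57, 6.24 and 8.24 CPM in WT1A, WT2A and WT2B. FS5A lay within the wild-type range and the other 2 above it, and the log2 fold change of 0.43 (SE 0.289) did not pass (edgeR adjusted p = 0.37). Mcoln1, the calcium-permeable channel of the lysosomal membrane, was nearly level, at 56.0 ± 4.45 CPM in C234W and 54.3 ± 3.86 CPM in wild type (SD, n = 3 each), although its log2 fold change of 0.044 was -0.013 without WT2B and -0.0095 without FS5A. The TFEB relatives Tfe3 and Mitf had log2 fold changes of 0.097 (SE 0.169) and 0.08 (SE 0.235).

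Promoters are shown because TFEB-family factors are known to read the E-box CACGTG within lysosomal start regions. RefSeq promoter windows of 300 bases (GRCm38.p6, the assembly of mm10) were matched for 30 of the 37 genes, with 37 windows. CACGTG, which reads the same on both strands, was in a window of 14 of the 30 genes (46.7%), against 8.09% of 27025 genes in the table. The longer TCACGTGA, which contains it, was in 7 of the 30 (23.3%), against 1.12%, and the same 8 letters with G before and C after were in 1 of the 30 (3.33%), Cln3, against 0.37% of genes. The windows of Lamp1 and Atp6v0b, genes with groups apart, are given whole, at chr8:13158911-13159210 on the plus strand and chr4:117887280-117887579 on the minus strand, with each CACGTG in capitals:
Lamp1: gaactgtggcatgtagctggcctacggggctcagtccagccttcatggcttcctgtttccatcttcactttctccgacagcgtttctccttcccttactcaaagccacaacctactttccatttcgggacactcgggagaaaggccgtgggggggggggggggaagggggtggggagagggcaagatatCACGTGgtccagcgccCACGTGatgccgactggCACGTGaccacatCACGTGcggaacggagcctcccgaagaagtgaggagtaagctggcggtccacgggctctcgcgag
Atp6v0b: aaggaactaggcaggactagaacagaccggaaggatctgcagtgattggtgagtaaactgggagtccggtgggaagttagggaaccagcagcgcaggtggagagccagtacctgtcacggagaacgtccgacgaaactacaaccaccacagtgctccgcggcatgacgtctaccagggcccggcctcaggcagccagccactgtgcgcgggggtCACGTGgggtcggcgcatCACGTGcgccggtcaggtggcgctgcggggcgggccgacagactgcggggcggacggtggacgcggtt

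Stretches of 50 bases show the 8-base element TCACGTGA in capitals in 5 genes, 1 of them (Cln3) with its G and C flanks in capitals too. They lie at chr7:126583330-126583379 (minus strand) for Cln3, chr7:142387898-142387947 (minus) for Ctsd, chr2:164833739-164833788 (plus) for Ctsa, which holds the element at 2 places, chr8:105566040-105566089 (minus) for Atp6v0d1 and chr16:44139363-44139412 (minus) for Atp6v1a:
Cln3: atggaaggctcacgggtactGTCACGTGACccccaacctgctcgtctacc
Ctsd: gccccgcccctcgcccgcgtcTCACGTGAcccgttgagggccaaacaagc
Ctsa: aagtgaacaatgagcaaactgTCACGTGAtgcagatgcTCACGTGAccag
Atp6v0d1: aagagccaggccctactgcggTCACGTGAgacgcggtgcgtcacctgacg
Atp6v1a: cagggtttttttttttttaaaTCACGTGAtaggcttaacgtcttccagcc

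Cln3 and Ctsa have 2 RefSeq windows each, and the stretches shown for them belong to a start site inside the counted model. These matches are a description of letters, not of binding. Over the 14 genes with CACGTG the log2 fold changes had their median at -0.092 and ran from -0.68 for Lamp1 to 0.46 for Cln3. The 16 genes with a window but no match had a median of -0.097 and ran from -0.66 for Hexa to 0.43 for Tfeb. The 7 genes with no window, among them Atp6v1g1, the only gene called, had a median of -0.36 and are outside this comparison. The ranges covered each other. Atp6v1f, whose groups were apart, had no CACGTG in its window.

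Of 8 peptidases, 0 passed the test. A log2 fold change below 0 was found for 7, against 48.0% of all genes, and the median was -0.14. With the length trend removed, 4 of the 8 were below 0, against 54.5% of all genes. The median was then -0.078, against -0.051 over all genes. Ctsd, the main aspartic protease of the lysosome, had 264, 407 and 298 CPM in FS3A, FS3B and FS5A, against 498, 416 and 445 CPM in WT1A, WT2A and WT2B. All C234W libraries were lower, FS3B by little, and the log2 fold change was -0.49 (SE 0.194, edgeR quasi-likelihood adjusted p = 0.166). WT1A, the library with the highest pigment epithelium markers, also had the highest Ctsd; without it the log2 fold change was -0.41. The part of pigment epithelium in these values was not tested.

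Ctsb, a cysteine protease, had 437, 605 and 418 CPM in FS3A, FS3B and FS5A, against 645, 632 and 641 CPM in WT1A, WT2A and WT2B. The groups were apart but FS3B was close to wild type, and the log2 fold change was -0.39 (SE 0.183, edgeR quasi-likelihood adjusted p = 0.213). Its counted model of 4731 bases is the longest of the 37, and with the length trend removed its log2 fold change was -0.61 (SE 0.178). Ctsa, the serine carboxypeptidase that protects sialidase and beta-galactosidase, had 71.8, 88.8 and 78.0 CPM in FS3A, FS3B and FS5A, against 114, 81.1 and 84.6 CPM in WT1A, WT2A and WT2B. The wild-type mean rested on WT1A, and without that library the log2 fold change was -0.053 in place of -0.23 (SE 0.177).

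Ctss, a cysteine protease typical of microglia in nervous tissue, and Ctsh, a related aminopeptidase, were the lowest peptidases per kilobase. Ctss had 15.5, 28.0 and 15.7 CPM in FS3A, FS3B and FS5A, against 16.3, 18.4 and 31.6 CPM in WT1A, WT2A and WT2B, with the highest value of each genotype in FS3B and WT2B. Ctsh had 17.9, 20.5 and 13.1 CPM in FS3A, FS3B and FS5A, against 15.4, 18.5 and 20.9 CPM in WT1A, WT2A and WT2B. The 12 microglia and macrophage markers, all measured and none at 0, summed to 49.8, 74.7 and 54.6 CPM in FS3A, FS3B and FS5A, against 54.7, 56.5 and 87.8 CPM in WT1A, WT2A and WT2B. The marker sum and Ctss were thus highest in the same library of each genotype, and so were Ctsh, Ctsl and Ctsz. FS3B was the highest C234W library for 28 of the 37 genes and for 34.5% of all genes tested. The part of microglia and macrophages in Ctss was not tested. The log2 fold changes of Ctss and Ctsh were -0.16 (SE 0.321) and -0.092 (SE 0.225), and each changed sign in some settings.

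The other peptidases overlapped between genotypes. Ctsl averaged 141 ± 38.8 CPM in C234W and 147 ± 15.1 CPM in wild type, and Ctsz 28.6 ± 5.51 and 31.0 ± 4.77 CPM (SD, n = 3 each). Tpp1, a tripeptidyl peptidase lost in a childhood form of neuronal ceroid lipofuscinosis, was the only peptidase with a log2 fold change above 0, at 0.19 (SE 0.177, edgeR quasi-likelihood adjusted p = 0.54).

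Among 9 glycan hydrolases, 0 passed in edgeR, and Hexa alone had an unadjusted p under 0.05 (11.1%, against 25.4% of all genes). Hexa (NM_010421, protein-coding, chr9:59539540-59565109, plus strand) encodes the alpha subunit of beta-hexosaminidase A, which degrades the ganglioside GM2. It had 26.6, 25.8 and 31.0 CPM in FS3A, FS3B and FS5A, against 36.1, 43.4 and 51.9 CPM in WT1A, WT2A and WT2B. The groups did not overlap, and the log2 fold change was -0.66 (SE 0.183, edgeR quasi-likelihood adjusted p = 0.0801, DESeq2 adjusted p = 0.0271). It was -0.60 (SE 0.189) with the length trend removed. Gm2a, the activator protein of GM2 degradation, was picked once its values were known and stood at -0.69 (log2 fold change, SE 0.252, edgeR quasi-likelihood adjusted p = 0.143).

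The other glycan hydrolases had log2 fold changes from -0.099 for Gla, alpha-galactosidase A, to 0.31 for Naglu. Naglu, which acts on heparan sulfate, had 9.09, 13.0 and 8.9 CPM in FS3A, FS3B and FS5A, against 11.03, 7.97 and 5.96 CPM in WT1A, WT2A and WT2B, so the groups overlapped (SE 0.286). Gaa, the acid alpha-glucosidase that degrades glycogen, had 90.1, 166 and 118 CPM in FS3A, FS3B and FS5A, against 120.3, 102 and 96.1 CPM in WT1A, WT2A and WT2B. Its C234W mean rested on FS3B, and its log2 fold change of 0.23 (SE 0.223) turned to -0.025 without that library. Gusb, beta-glucuronidase, had 6.24, 7.3 and 7.07 CPM in FS3A, FS3B and FS5A, against 5.71, 5.98 and 7.65 CPM in WT1A, WT2A and WT2B, with full overlap.

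Neu1, the lysosomal sialidase, had the smallest SE of all 37, at 55.6 ± 2.57 CPM in C234W and 52.8 ± 0.632 CPM in wild type (SD, n = 3 each), a log2 fold change of 0.075 (SE 0.137). Man2b1, which trims mannose, and Sgsh, a sulfamidase of heparan sulfate breakdown, had 0.22 (SE 0.25) and -0.0074 (SE 0.305), and Glb1, beta-galactosidase, had -0.084 (SE 0.337), as log2 fold changes. Glb1 rests on the fewest counts of the 37, with 5.93 ± 2.59 CPM in C234W and 6.32 ± 1.08 CPM in wild type. A model named Tmppe overlaps it on the same strand, with means of 4.43 CPM in C234W and 2.32 CPM in wild type. The part of this overlap in the Glb1 values was not tested.

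The 3 genes acting on lipids and thioesters overlapped between genotypes, with edgeR quasi-likelihood adjusted p from 0.65 to 0.911. Psap, the precursor of the saposins that present sphingolipids to their hydrolases, had 487, 940.4 and 592 CPM in FS3A, FS3B and FS5A, against 812, 684 and 817 CPM in WT1A, WT2A and WT2B. FS3B was the highest of all 6 libraries and FS3A the lowest, and the log2 fold change was -0.20 (SE 0.246). Ppt1, the palmitoyl-protein thioesterase, had 82.3, 98.4 and 80.1 CPM in FS3A, FS3B and FS5A, against 80.6, 95.9 and 98.3 CPM in WT1A, WT2A and WT2B. Asah1, acid ceramidase, had 34.6, 48.6 and 43.3 CPM in FS3A, FS3B and FS5A, against 40.1, 39.3 and 43.8 CPM in WT1A, WT2A and WT2B. Both were nearly level, with log2 fold changes of -0.075 (SE 0.155) and 0.038 (SE 0.172).

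Further lysosomal genes, 69 in number with the pump genes above, gave no call. Of 63 that passed the filter on low counts, 0 passed in edgeR, 8 were higher and 8 lower at an unadjusted p under 0.05 (25.4%, against 25.4% of all genes), DESeq2 called 6 (where it called 12.7% of all genes), and the median log2 fold change was 0.017. The DESeq2 calls were Rragc, Lamtor4 and Fuca1, which were lower, and Idua, Slc17a5 and Flcn, which were higher. The smallest p in edgeR belonged to Rragc, Lamtor4 and Fuca1. Rragc, a GTPase of the nutrient-sensing complex on the lysosomal surface, had 60.3, 69.1 and 68.0 CPM in FS3A, FS3B and FS5A, against 89.2, 113 and 119.9 CPM in WT1A, WT2A and WT2B. Its groups were apart, with a log2 fold change of -0.71 (SE 0.162, edgeR quasi-likelihood adjusted p = 0.0576) that was -0.75 with the length trend removed. Lamtor4, a short scaffold subunit that anchors those GTPases, had 22.8, 21.5 and 23.0 CPM in FS3A, FS3B and FS5A, against 40.6, 33.9 and 32.1 CPM in WT1A, WT2A and WT2B. Its groups were apart too, with a log2 fold change of -0.66 (SE 0.163, edgeR quasi-likelihood adjusted p = 0.064) that was -0.33 with the length trend removed. Fuca1, alpha-L-fucosidase, had 38.4, 49.4 and 42.8 CPM in FS3A, FS3B and FS5A, against 64.95, 62.0 and 71.95 CPM in WT1A, WT2A and WT2B. All its C234W libraries were lower, with a log2 fold change of -0.61 (SE 0.158, edgeR quasi-likelihood adjusted p = 0.0713) and of -0.64 with the trend removed. Flcn, a regulator of these GTPases that was picked once its values were known, stood at 0.91 (log2 fold change, SE 0.317, edgeR quasi-likelihood adjusted p = 0.13) with overlapping groups, at 217 ± 51.5 CPM in C234W and 116 ± 54 CPM in wild type (SD, n = 3 each). Without WT1A, edgeR called 11 of the 63, where it called 18.5% of all genes, so that count is near the background.

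Per kilobase of the counted model, levels differed widely between genes. Psap was the highest of the 37, at 255 ± 89.7 CPM per kilobase in C234W and 292 ± 28.6 in wild type, where Atp6v0b, at 197 ± 15.8 in C234W and 295 ± 2.65 in wild type, was at about the same level (SD, n = 3 each). Ctsd followed with 169.5 ± 39.2 in C234W and 238 ± 21.8 in wild type. The lowest were Glb1, at 2.49 ± 1.09 in C234W and 2.66 ± 0.453 in wild type, Gusb, at 2.58 ± 0.21 and 2.42 ± 0.394, and Sgsh, at 2.62 ± 0.863 and 2.64 ± 0.664, which did not differ beyond their spread. Pump subunits ranged from 46.4 to 197 CPM per kilobase in C234W and from 62.2 to 295 in wild type, both ends being Atp6v1h and Atp6v0b.

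**Figure D5:**
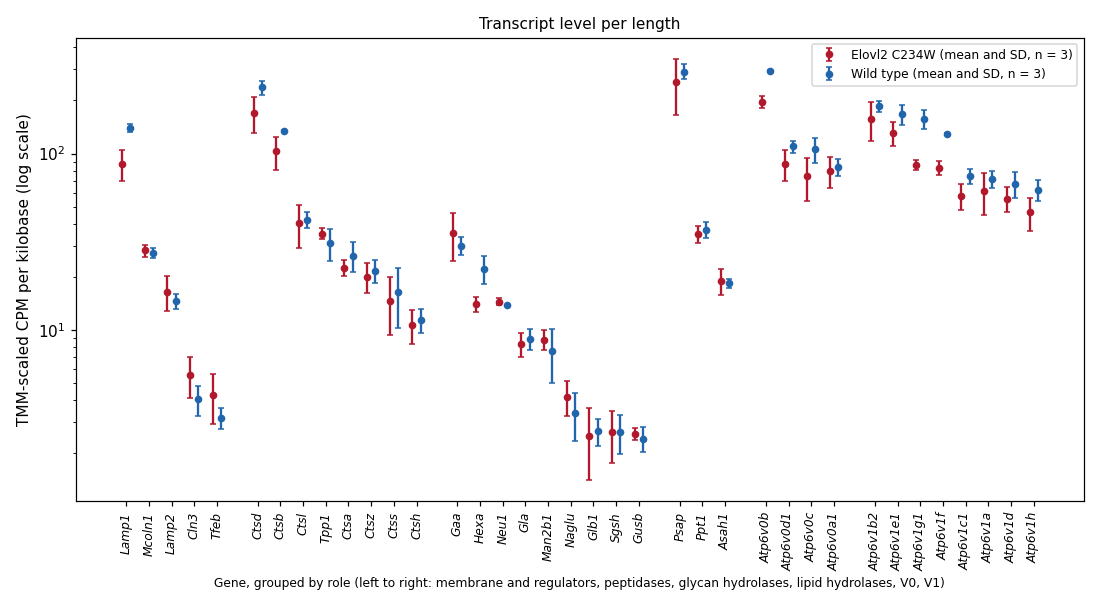
TMM-scaled CPM per kilobase (y axis, log scale) of the 37 genes, mean and SD over 3 libraries, C234W left and wild type right for each gene, grouped by role. Psap, Atp6v0b and Ctsd are at the top, Glb1, Gusb and Sgsh at the bottom, and the separation of Lamp1, Atp6v0b, Atp6v1g1 and Atp6v1f between genotypes is visible.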

How the data were processed

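Poly-A RNA of whole retina was sequenced from strand-specific TruSeq libraries, per the labels' protocols. The authors aligned reads to mm10 by STAR (version 2.7.8a in the submitters' processing notes). HOMER then tallied unique tags over exons, using strand and a single isoform for each locus, per the series' design text. What they deposited are estimated counts without normalization, per the file headers, in steps of 0.5; here these were rounded to whole numbers. Columns named WT were taken as wild type, and the 3 columns named FS as Elovl2C234W by elimination, since the header names 3 directories of each genotype; every direction rests on this. The chi-square per degree of freedom between libraries was smallest, 9.97, for WT2A and WT2B, which share a number, and 30.6 to 112 for the other pairs. All exceed sampling noise, so none was counted as a duplicate, but WT2A and WT2B may not be independent.

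Low genes were removed with filterByExpr (edgeR 4.0.16 under R 4.3.3); the rest were scaled by TMM and tested by the quasi-likelihood test with genotype only, adjusted by Benjamini-Hochberg over all genes. Alternatives were RLE and total count scaling, 2 other filters, DESeq2 (1.42.0), limma-voom (3.58.1), a loess trend on transcript length removed (span 0.3), libraries of a shared name number summed, a threshold of 0.01, each library left out and, added after the data were seen, the letter ending the library name as a term. The scripts were tested on simulated data. Values in every library are given for members past the threshold, for the 3 smallest p in each role, and for the highest and lowest level per kilobase in each role. 1 gene of the lists is not reported here. The members and lists were chosen with earlier results of these data known. Counts per member, summed over 3 libraries, ran from 342 to 38444 in C234W and from 294 to 36034 in wild type, which limits the precision of the low genes. Promoter windows are RefSeq's, from 250 bases before to 50 after a start site.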

Additional observations from a re-analysis of the deposited data

How the results depend on the processing

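No paired analysis was possible because the columns carry none of the replicate numbers of the labels. With the letter A or B of the library names as a term instead, added after the data were seen, 4 members, 3 pump subunits, 2 other lysosomal genes and 701 genes in all passed. Of 555 log2 fold changes of members under 15 alternatives, 500 kept direction and side of the threshold, 9 lost the call (all Atp6v1g1), 11 gained one and 35 changed direction; the cause was not tested. The count of members called, 1, was 0 with RLE scaling, total count scaling, length trend removed, summed libraries or a threshold of 0.01, and 5 in DESeq2 (Lamp1, Hexa, Atp6v0b, Atp6v1f and Atp6v1g1; 12.7% of all genes). Among pump subunits it was 0 in the same settings and 3 in DESeq2, and for the other lysosomal genes 6 in DESeq2. Leaving out each library gave 0 to 5 members (5 without WT1A, where 18.5% of all genes passed), 0 to 3 pump subunits and 0 to 11 other lysosomal genes. Over all genes 215 were called, 353 with no filter, 1754 in DESeq2, 0 with RLE, total counts, length trend removed, summing or 0.01, and 0 to 2775 with a library left out; at an unadjusted p under 0.05 the counts were 3753, 4349, 3020 and 1793 for those with RLE, total counts, length trend and summing.

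Total count scaling put the median over all genes at 0.20, over all members at 0.064, over membrane proteins and regulators at 0.363 and over other lysosomal genes at 0.19; it turned Ctsh to 0.086, Ctsl to 0.123, Ctss to 0.0204, Ctsz to 0.064, Gla to 0.0866, Glb1 to 0.114, Sgsh to 0.191, Ppt1 to 0.101 and Atp6v0a1 to 0.106. Sgsh was 0.0011 with RLE and 0.00103 in DESeq2. With the length trend removed, Ctsh was 0.0429, Ctss 0.051, Ctsz 0.0662 and Neu1 -0.0846. Leaving out 1 library, the median of all members ran from -0.314 (without FS3B) to -0.00894 (without FS3A). Single genes that changed direction then ran from -0.0126 to 0.106 for Mcoln1, -0.24 to 0.0693 for Ctsh, -0.298 to 0.0971 for Ctsl, -0.497 to 0.192 for Ctss, -0.278 to 0.0155 for Ctsz, -0.226 to 0.0233 for Gla, -0.505 to 0.0898 for Glb1, -0.0245 to 0.422 for Gaa, -0.229 to 0.234 for Sgsh, -0.0029 to 0.496 for Man2b1, -0.0748 to 0.164 for Asah1 and -0.25 to 0.029 for Atp6v0a1.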
